A study of Mus musculus with 44 samples.

Results

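The 10 genes described here encode the core of the inflammasome and of pyroptosis: the sensors Nlrp3, Aim2 and Nlrc4, the adaptor Pycard, the inflammatory caspases Casp1 and Casp4, the pore-forming gasdermins Gsdmd and Gsdme, and the cytokines Il1b and Il18. They were chosen by name from a table of raw read counts holding 35249 genes, and all 10 were among the 14862 genes that passed the filter on low counts. The data were RNA sequencing libraries of mouse liver, with 9 groups formed by 3 genotypes and 3 diets. Mice were wild type (WT), Ripk3-/- (Ripk3KO) or Mlkl-/- (MlklKO). They were 2 months old when the diet began and were kept on it for 6 months. The diets were normal chow (control) and choline-deficient diets of low (CD-LFD) or high (CD-HFD) fat content. Each WT group had 6 libraries. The Ripk3KO groups had 6, 3 and 4 libraries on control, CD-LFD and CD-HFD, and the MlklKO groups had 6, 4 and 3. The labels give neither strain, sex, litter nor sequencing batch, and name no clone or Cre driver for the knockouts. They do not say that each library came from a separate mouse, so p-values measure the spread between libraries. Ripk3 and Mlkl encode a kinase and the membrane-rupturing protein it activates in necroptosis, a lytic form of cell death that the study examined in relation to inflammation and liver cancer.

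Inflammasomes are protein assemblies of innate immune cells. A sensor such as NLRP3, AIM2 or NLRC4 recruits the adaptor ASC, the product of Pycard, which clusters and activates caspase-1. Caspase-1 then cleaves pro-interleukin-1β and pro-interleukin-18 to their active forms and cuts gasdermin D, whose freed part opens pores in the plasma membrane and kills the cell by pyroptosis. Caspase-11, the product of mouse Casp4, is activated by lipopolysaccharide in the cytosol and cuts gasdermin D directly. Gasdermin E also forms pores once it is cut. In the liver these genes are best known from Kupffer cells and infiltrating macrophages. Activation of the pathway is set by protein assembly and cleavage, neither of which RNA levels record.

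Library totals were 2476268 to 12471844 counts in 43 libraries, and the library labelled WT CD-LFD replicate 3 held 88204703. Values are given as scaled CPM, which are CPM after correction of the library total by the trimmed mean of M values (TMM). They are not corrected for gene length, so levels are compared between libraries and not between genes. Most members had few counts: 24 of the 44 libraries had under 10 counts of Nlrp3, against 0 libraries for Gsdmd, Gsdme and Il18. Ripk3 was at 0 to 0.325 scaled CPM in 12 of the 13 libraries labelled Ripk3KO and at 1.26 (9 counts) in the library labelled Ripk3KO control replicate 5. That value lies within the WT control range of 0.510 to 4.88. Mlkl was counted in every library labelled MlklKO, at 1.46 to 4.82 scaled CPM except for 12.5 in MlklKO CD-HFD replicate 1 as labelled. In WT it was 2.28 to 17.6 over all diets and 14.3 to 17.6 on CD-HFD. Every difference below includes the libraries labelled Ripk3KO control replicate 5 and MlklKO CD-HFD replicate 1 unless it says otherwise. Without the MlklKO library the members called numbered 6 for CD-HFD minus control, 4 for CD-HFD minus CD-LFD, 0 for MlklKO minus WT on CD-HFD and 0 for the interaction with CD-HFD, as with it. Without the Ripk3KO library they numbered 7 for CD-HFD minus control, 4 instead of 5 for CD-LFD minus control, 1 for Ripk3KO minus WT on control and 0 for both interactions. Libraries also differed in their clock-gene ratio, the log2 of Arntl over Dbp, genes whose RNA peaks at opposite times of day. A gap of 0.97 in this ratio, between -3.60 and -2.63, set 11 libraries apart, all of them WT: 4 of 6 on control, all 6 on CD-LFD and 1 of 6 on CD-HFD. All libraries of both knockouts were in the low range. Knockout and clock-gene ratio therefore cannot be told apart on CD-LFD, whereas CD-LFD and control in WT can be set side by side within the high range (6 and 4 libraries).

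The sequences just upstream of the first annotated start of 4 members are shown. Of these members, 3 (Pycard, Aim2 and Casp1) were higher on both choline-deficient diets in every genotype and Il1b was not. Casp4 was also higher on both diets in every genotype. It is not shown, and neither of its 2 annotated starts had a match. The sequences come from RefSeq on build GRCm38.p6, hold the 250 bases before the start and are written 5′ to 3′ on the gene's own strand. Promoters of 9 of the 10 members were matched by symbol, and Gsdmd was not among them. Short motifs were searched on both strands: NF-kappaB (GGGA and TTCC with any 2 bases between them), an interferon response element (GAAA and GAAA with any 2 bases between them), PU.1 (GAGGAAGT) and AP-1 (TGANTCA). Capitals mark a match, and a sequence without capitals holds none.
Pycard, chr7:127993868-127994117, minus strand: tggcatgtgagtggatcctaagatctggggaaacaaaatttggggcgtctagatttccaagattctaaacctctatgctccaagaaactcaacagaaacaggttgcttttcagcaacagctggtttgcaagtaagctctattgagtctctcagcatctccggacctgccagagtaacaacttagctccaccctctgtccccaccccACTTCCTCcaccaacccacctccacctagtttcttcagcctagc
Aim2, chr1:173420354-173420603, plus strand: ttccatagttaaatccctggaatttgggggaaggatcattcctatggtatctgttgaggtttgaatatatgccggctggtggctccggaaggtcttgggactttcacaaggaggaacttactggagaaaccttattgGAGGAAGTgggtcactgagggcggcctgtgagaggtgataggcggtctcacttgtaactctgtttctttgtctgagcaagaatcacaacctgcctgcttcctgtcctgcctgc
Casp1, chr9:5298267-5298516, plus strand: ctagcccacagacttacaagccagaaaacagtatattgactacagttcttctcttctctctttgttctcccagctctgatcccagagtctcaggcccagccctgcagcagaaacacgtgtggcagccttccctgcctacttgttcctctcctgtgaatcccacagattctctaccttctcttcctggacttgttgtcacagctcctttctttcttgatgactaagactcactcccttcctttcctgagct
Il1b, chr2:129371140-129371389, minus strand: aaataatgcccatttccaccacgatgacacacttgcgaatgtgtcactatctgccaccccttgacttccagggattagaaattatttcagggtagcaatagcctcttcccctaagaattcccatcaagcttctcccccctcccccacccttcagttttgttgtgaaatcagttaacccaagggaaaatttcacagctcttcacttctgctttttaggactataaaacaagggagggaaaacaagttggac
Of the 9 members only Aim2 and Pycard held a match, in both cases to the PU.1 motif. It lies 113 to 106 bases before the start of Aim2 and, on the opposite strand as ACTTCCTC, 44 to 37 bases before that of Pycard. The same window holds the PU.1 motif in 2.44% of 32851 promoters in the table, the NF-kappaB motif in 1.21%, the interferon motif in 2.98% and the AP-1 motif in 6.75%. A match is a run of letters and not a binding site, and the lack of one says only that these letters are absent from this window.

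On CD-HFD the sensors, the adaptor and both caspases were higher than on control in all 3 genotypes. Gsdmd did not pass the test in any, and neither cytokine was called higher in any. In WT, 7 of the 10 members were higher and 2 lower (edgeR quasi-likelihood test, Benjamini-Hochberg adjusted p under 0.05 over all genes tested). Over all 14862 genes tested, 47.7% were called in that comparison, 23.5% higher and 24.1% lower. Ripk3KO had 7 members higher and none lower, where 46.3% of all genes were called (24.6% higher, 21.7% lower). MlklKO had 6 higher and none lower, where 45.2% of all genes were called (24.9% higher, 20.3% lower). The median log2 difference of the 10 members was 1.45 in WT, 1.44 in Ripk3KO and 2.08 in MlklKO, while the median over all genes tested was -0.07, -0.05 and -0.04. The members with an unadjusted p under 0.05 numbered 9, 7 and 6, the same as those called, against 7928, 7785 and 7714 of all genes. DESeq2 called 8, 7 and 6 members in the 3 genotypes.

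**Figure D1:**
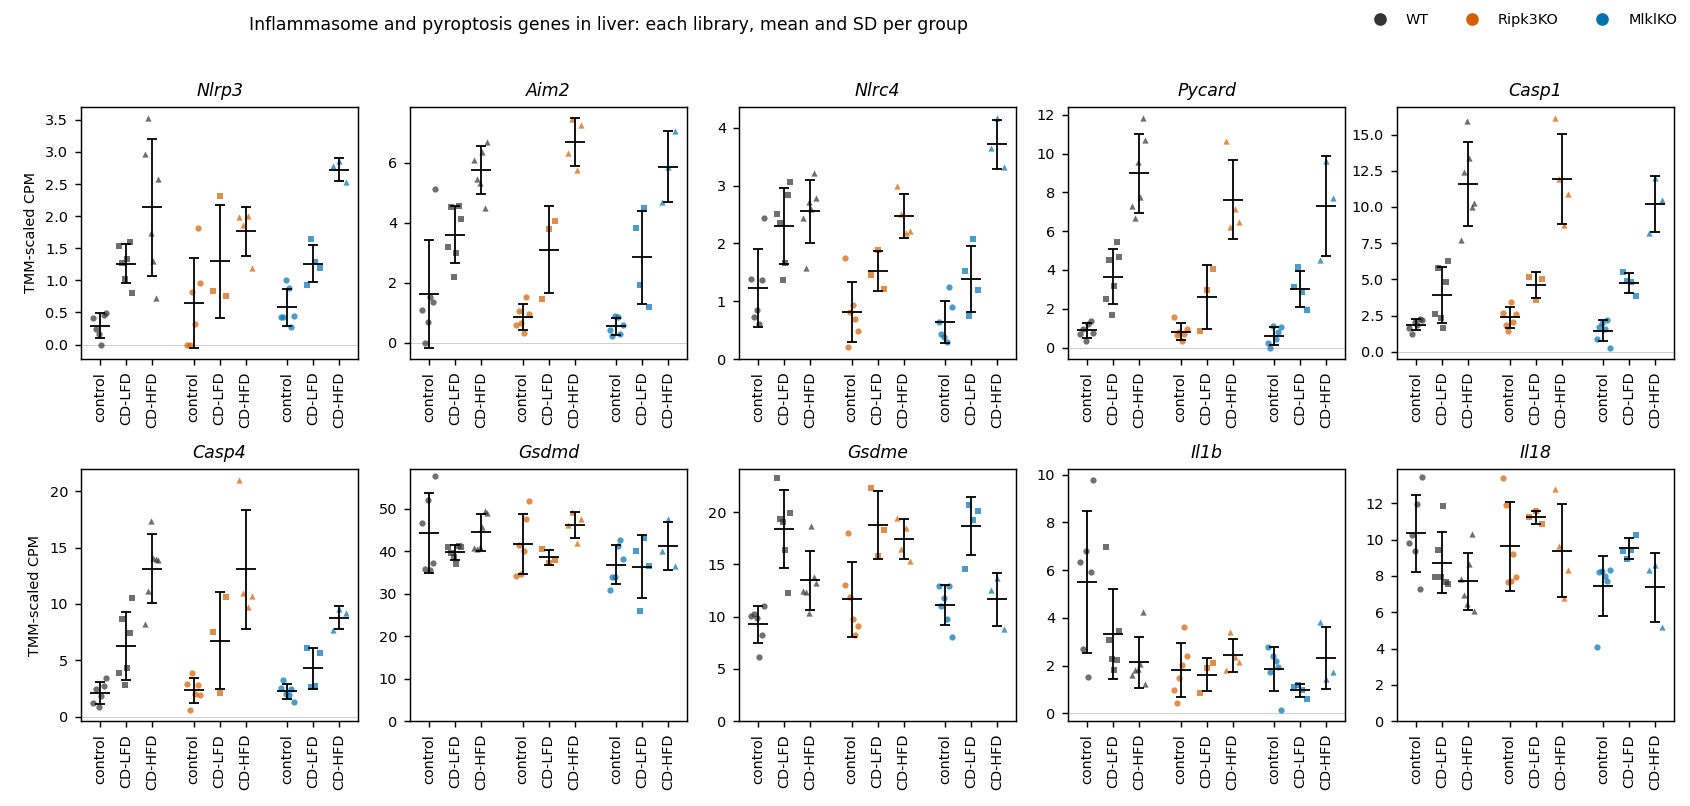
Scaled CPM of the 10 members in every library (points), with the mean and SD of each of the 9 groups, each gene on its own axis. The sensors, Pycard, Casp1 and Casp4 climb from control to CD-HFD, Gsdmd stays near 40 scaled CPM, and Il1b is highest in WT on control at 5.51 ± 2.98 (SD, n = 6).

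Among the sensors, Nlrp3, which responds to potassium efflux and many forms of cell damage, was close to undetected in WT on control, at a lowest, median and highest of 0, 0.329 and 0.488 scaled CPM. On CD-LFD its WT values were 0.798, 1.30 and 1.60, and on CD-HFD 0.724, 2.16 and 3.53. Every WT library on either choline-deficient diet was thus above every WT control library. The WT control libraries held 0 to 3 counts each and 8 in all, against 113 on CD-HFD, a ratio of scaled counts of 6.73 with a 95% interval from counting error of 3.30 to 16.0. The fitted log2 difference was 2.77 ± 0.55 (SE; edgeR adjusted p = 5.73e-05) on CD-HFD and 2.01 ± 0.58 (adjusted p = 0.00809) on CD-LFD. In Ripk3KO, Nlrp3 ranged from 0 to 1.81 on control with a median of 0.564, and was 1.99, 1.86, 2.01 and 1.19 on CD-HFD. The groups overlapped, and the difference of 1.33 ± 0.49 (edgeR adjusted p = 0.0232) lost its call without Ripk3KO control replicate 1, 2 or 4 or Ripk3KO CD-HFD replicate 3, with an adjusted p of up to 0.0581, and in a fit restricted to the groups compared (0.0804). The log2 difference rose to 2.04 when Ripk3KO control replicate 5 was left out. In MlklKO the values were 0.276 to 1.004 on control, with a median of 0.440, and 2.78, 2.87 and 2.53 on CD-HFD, with no overlap (log2 difference 2.17 ± 0.51, edgeR adjusted p = 0.000588). On CD-LFD Nlrp3 did not pass the test in either knockout, with 0.832, 2.31 and 0.754 in Ripk3KO and 0.931, 1.64, 1.28 and 1.19 in MlklKO.

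Aim2, which binds double-stranded DNA in the cytosol, had a lowest, median and highest of 0, 1.23 and 5.12 scaled CPM in WT on control, 2.19, 3.66 and 4.57 with CD-LFD and 4.50, 5.78 and 6.70 on CD-HFD. A single control library, replicate 6 at 5.12, reached into both diet groups, and the next highest was 1.53. The CD-HFD difference was 1.85 ± 0.39 on the log2 scale (edgeR adjusted p = 0.00014), and without WT control replicate 6 it was 2.67. In Ripk3KO, Aim2 was 0.315 to 1.53 on control and 6.32, 7.44, 5.76 and 7.24 on CD-HFD, and in MlklKO 0.217 to 0.878 on control and 4.69, 5.86 and 7.05 on CD-HFD. Neither knockout had any overlap, and the differences were 2.95 ± 0.43 (edgeR adjusted p = 3.41e-07) and 3.34 ± 0.48 (2.46e-07). On CD-LFD Aim2 was also higher in all 3 genotypes. The values were 1.46, 3.79 and 4.07 in Ripk3KO and 3.81, 1.93, 4.48 and 1.19 in MlklKO, and the log2 differences were 1.14 ± 0.40 in WT, 1.89 ± 0.49 in Ripk3KO and 2.31 ± 0.48 in MlklKO (edgeR adjusted p = 0.0297, 0.0042 and 0.000257). The WT call was lost without WT control replicate 1, 2 or 3 or WT CD-LFD replicate 2, 5 or 6 (adjusted p up to 0.0921) and in a fit of the compared groups alone (0.157). The Ripk3KO call on CD-LFD was lost without Ripk3KO CD-LFD replicate 3.

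Nlrc4, which acts with NAIP proteins in the response to bacterial flagellin and secretion systems, had the smallest CD-HFD difference of the sensors in WT. Its WT values had a lowest, median and highest of 0.614, 1.11 and 2.44 on control and 1.58, 2.66 and 3.22 on CD-HFD, with overlap (log2 difference 1.05 ± 0.33, edgeR adjusted p = 0.00749). The knockouts had lower control levels on average, 0.815 ± 0.525 in Ripk3KO and 0.647 ± 0.363 in MlklKO (SD, n = 6 each) against 1.23 ± 0.67 in WT, none of which passed the test against WT. On CD-HFD Nlrc4 was 2.99, 2.52, 2.18 and 2.21 in Ripk3KO and 3.65, 4.17 and 3.33 in MlklKO, all above their controls. The differences were 1.56 ± 0.36 (edgeR adjusted p = 0.000454) and 2.48 ± 0.38 (9.87e-07). The larger value in MlklKO than in WT corresponds to an interaction of 1.43 ± 0.51, which did not pass the test (edgeR adjusted p = 0.102). On CD-LFD Nlrc4 passed the test only in MlklKO (1.07 ± 0.39, edgeR adjusted p = 0.0288), a call lost without MlklKO control replicate 2, 3 or 4 or MlklKO CD-LFD replicate 1 or 3.

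Pycard, the adaptor through which sensors reach caspase-1, had the largest CD-HFD difference of the 10 members in each genotype. In WT its lowest, median and highest were 0.34, 0.854 and 1.37 scaled CPM on control, 1.69, 3.84 and 5.43 with CD-LFD and 6.69, 8.68 and 11.8 on CD-HFD. The 3 WT diet groups did not overlap. In Ripk3KO it was 0.315 to 1.55 on control, 0.832, 2.95 and 4.07 with CD-LFD and 10.6, 6.24, 7.16 and 6.47 on CD-HFD. In MlklKO it was 0 to 1.13 on control, 3.13, 4.17, 2.88 and 1.93 with CD-LFD and 4.52, 9.64 and 7.72 with CD-HFD. Each CD-HFD library was above every CD-LFD library of its genotype, and only Ripk3KO CD-LFD replicate 1, at 0.832, lay among its controls. The CD-HFD differences were 3.46 ± 0.39 in WT, 3.20 ± 0.39 in Ripk3KO and 3.44 ± 0.42 in MlklKO (edgeR adjusted p = 1.42e-09, 1.08e-08 and 8.18e-09), which in WT is 11-fold.

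Casp1, the protease that matures interleukin-1β, had a lowest, median and highest of 1.22, 1.94 and 2.28 scaled CPM in WT on control, 1.67, 3.73 and 6.25 with CD-LFD and 7.71, 11.4 and 15.9 on CD-HFD. The CD-HFD libraries were all above both other WT groups. On CD-HFD it was 16.1, 11.9, 8.73 and 10.9 in Ripk3KO and 8.17, 12 and 10.5 in MlklKO, against control ranges of 1.46 to 3.46 and 0.298 to 2.20. The CD-HFD differences were 2.65 ± 0.30 in WT, 2.31 ± 0.30 in Ripk3KO and 2.78 ± 0.33 in MlklKO (edgeR adjusted p = 1.41e-09, 2.65e-08 and 4.23e-09). Casp4, the non-canonical inflammatory caspase, followed the same order. Its WT values were 0.85, 2.14 and 3.42 on control, 2.80, 5.87 and 10.5 with CD-LFD and 8.25, 14 and 17.3 on CD-HFD. In the knockouts on CD-HFD it was 20.9, 10.9, 9.69 and 10.7 in Ripk3KO and 7.65, 9.51 and 9.18 in MlklKO, with control ranges of 0.627 to 3.90 and 1.34 to 3.25. All CD-HFD libraries were above their controls, with differences of 2.74 ± 0.37, 2.42 ± 0.37 and 1.98 ± 0.40 (edgeR adjusted p = 8.05e-08, 8.56e-07 and 8.69e-05). The library at 20.9, Ripk3KO CD-HFD replicate 1, lowered the Ripk3KO difference to 2.11 when it was left out.

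The gasdermins did not share this pattern. Gsdmd, the pore-forming target of caspase-1 and caspase-11, had a lowest, median and highest of 35.6, 42.0 and 57.8 scaled CPM in WT on control, 37.0, 40.3 and 41.2 with CD-LFD and 40.6, 43.4 and 49.5 on CD-HFD. The groups overlapped, and the WT CD-HFD difference was 0.00 ± 0.12 on the log2 scale with a 95% interval of -0.24 to 0.25 (edgeR adjusted p = 0.992). It was 0.15 (interval -0.12 to 0.42) in Ripk3KO and 0.17 (-0.13 to 0.46) in MlklKO. Without TMM correction, dividing by library size alone, the median of all genes moved from -0.07 to 0.43 in the WT comparison, and there Gsdmd was called higher in all 3 genotypes, by 0.49 in WT, 0.68 in Ripk3KO and 0.69 in MlklKO, where the median of all genes was 0.43, 0.48 and 0.49. Gsdme, the other pore-forming member, was higher on CD-LFD than on control in all 3 genotypes. Its WT values were 6.14, 9.96 and 11 on control, 12.2, 19.2 and 23.3 with CD-LFD and 10.3, 12.8 and 18.7 on CD-HFD. All WT CD-LFD libraries were above all WT controls, and the means on CD-LFD were 18.4 ± 3.7 in WT, 18.8 ± 3.3 in Ripk3KO and 18.6 ± 2.8 in MlklKO (SD, n = 6, 3 and 4). The CD-LFD differences were 0.97 ± 0.18, 0.69 ± 0.21 and 0.75 ± 0.19 (edgeR adjusted p = 7.01e-05, 0.0125 and 0.00209). The Ripk3KO call among these was lost without Ripk3KO CD-LFD replicate 3. On CD-HFD Gsdme was higher in WT (0.53 ± 0.18, edgeR adjusted p = 0.0137) and Ripk3KO (0.58 ± 0.19, 0.0104) but did not pass the test in MlklKO (12.5, 13.7 and 8.78 scaled CPM, 0.07 ± 0.21). The WT call was lost without WT CD-HFD replicate 4 (adjusted p = 0.0595). Between the choline-deficient diets Gsdme was lower on CD-HFD in MlklKO, with no overlap (-0.67 ± 0.23, edgeR adjusted p = 0.0267), and without MlklKO CD-HFD replicate 4 or MlklKO CD-LFD replicate 2 or 4 the call was lost (adjusted p up to 0.201). The same comparison in WT gave -0.45 ± 0.17 (adjusted p = 0.0495), a call made in 2 of 12 fits that left out 1 library.

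Neither cytokine was called higher on either choline-deficient diet in any genotype. Il1b, the precursor of interleukin-1β, was highest in WT on control, with 6.34, 2.68, 6.80, 1.53, 5.92 and 9.76 scaled CPM in replicates 1 to 6. Its lowest, median and highest were 1.83, 2.68 and 6.96 in WT on CD-LFD and 1.24, 1.84 and 4.26 in WT on CD-HFD. In Ripk3KO it was 0.418 to 3.63 on control, 0.832, 1.89 and 2.11 with CD-LFD and 1.83, 3.39, 2.36 and 2.13 on CD-HFD. In MlklKO it was 0.149 to 2.80 on control, 1.10, 1.19, 0.961 and 0.595 with CD-LFD and 3.82, 1.43 and 1.73 on CD-HFD. The WT CD-HFD group overlapped its controls, and the difference was -1.35 ± 0.40 (edgeR adjusted p = 0.00496). The knockouts gave 0.39 ± 0.47 and 0.30 ± 0.53, neither past the test. Without the library labelled MlklKO CD-HFD replicate 1, the MlklKO value was -0.22. Il18, the precursor of interleukin-18, which hepatocytes and Kupffer cells both express, had group means of 7.38 to 11.2 scaled CPM. In MlklKO its CD-LFD libraries (8.93 to 10.3) were all above those on control (4.09 to 8.34) and on CD-HFD (5.19 to 8.60). Neither difference passed the test. Control and CD-LFD overlapped in WT (7.29 to 13.4 and 7.58 to 11.8) and Ripk3KO (7.65 to 13.4 and 10.9 to 11.6). In WT its lowest, median and highest were 7.29, 10.02 and 13.4 on control and 6.08, 7.39 and 10.3 on CD-HFD, with overlap. The difference of -0.43 ± 0.18 was just under the threshold (edgeR adjusted p = 0.0487). It was called in 1 of 9 other settings and in 4 of 12 fits that left out 1 library, so that leaving out WT control replicate 1, 2, 4 or 6 or WT CD-HFD replicate 1, 2, 3 or 6 ended it, and it was 0.05 when libraries were divided by their size alone.

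**Figure D2:**
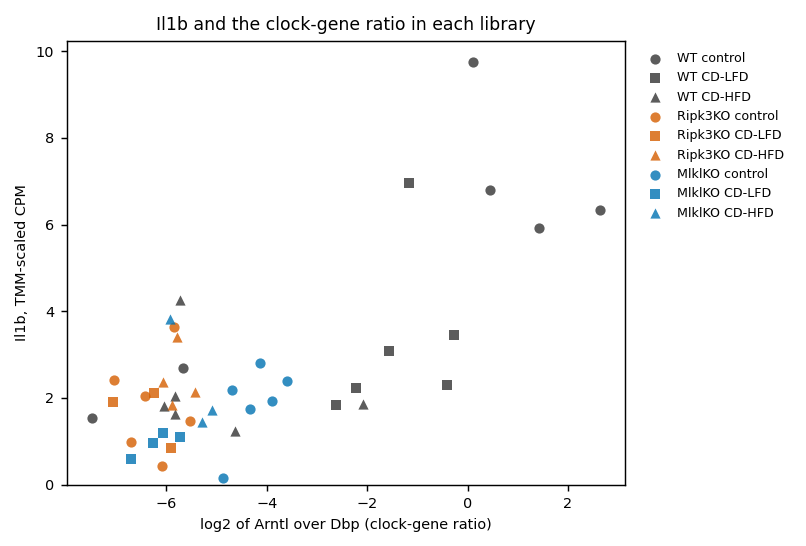
Il1b in scaled CPM (vertical axis) against the log2 ratio of Arntl to Dbp (horizontal axis) in each of the 44 libraries, with color and shape for the group. The 4 WT control libraries above the gap lie at 5.92 to 9.76 scaled CPM, and the 2 below it at 1.53 and 2.68, among the other groups.

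The difference in Il1b moved with the clock-gene ratio. Within WT on control, the 4 libraries with the high Arntl to Dbp ratio (replicates 1, 3, 5 and 6) had 5.92 to 9.76 scaled CPM, and the 2 with the low ratio had 1.53 and 2.68. The control libraries of both knockouts, which all had the low ratio, reached at most 3.63. Among the 33 libraries of the low range, the CD-HFD minus control difference of Il1b in WT was 0.11 (edgeR adjusted p = 0.907), against -1.35 over all libraries. With the ratio as a covariate it was -0.59 (edgeR adjusted p = 0.37), and with division by library size alone -0.91 (0.0519). High-ratio libraries did not all have high Il1b: in WT on CD-LFD, where every library was in that range, 5 of the 6 lay at 1.83 to 3.46. What set the ratio apart is not given in the labels, and its part in the Il1b values was not tested beyond these fits. The 7 members called higher in WT on CD-HFD all passed the test in the low range, where Il1b and Il18 were not called.

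On CD-LFD Pycard, Casp1, Casp4, Aim2 and Gsdme were higher than on control in all 3 genotypes, Nlrp3 in WT and Nlrc4 in MlklKO. Against control, 6 members were higher and 0 lower in WT, where 27.7% of all genes were called (13.7% higher, 14% lower). Ripk3KO had 5 higher (24.1% of all genes called, 14% higher and 10.1% lower), and MlklKO had 6 (37.9% called, 19.7% higher and 18.3% lower), with none lower in either. Within the high range of the clock-gene ratio in WT, Pycard was 0.34 to 1.37 scaled CPM on control and 1.69 to 5.43 on CD-LFD, Nlrp3 0.170 to 0.488 and 0.798 to 1.60, and Gsdme 8.20 to 11 and 12.2 to 23.3, with no overlap, while Casp1, Casp4, Aim2 and Nlrc4 overlapped. The log2 differences of Pycard were 2.12 ± 0.41, 1.77 ± 0.46 and 2.17 ± 0.42 in WT, Ripk3KO and MlklKO (edgeR adjusted p = 0.000159, 0.00418 and 0.000136). Those of Casp1 were 1.05 ± 0.31, 0.97 ± 0.34 and 1.69 ± 0.32 (adjusted p = 0.0114, 0.0354 and 0.000108), and those of Casp4 were 1.64 ± 0.38, 1.53 ± 0.41 and 0.97 ± 0.39 (adjusted p = 0.00134, 0.00538 and 0.0467). The Ripk3KO count rests on 3 CD-LFD libraries: it was 0 without replicate 3 and 3 without replicate 1, and the Casp1 call there was also lost without Ripk3KO control replicate 2, 3 or 5. Over all genes, fits of this comparison that left out 1 library called 1360 to 4108, against 3578 with every library. The Casp4 call in MlklKO was lost without MlklKO control replicate 1, 3, 4, 5 or 6 or MlklKO CD-LFD replicate 1 or 4.

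**Figure D3:**
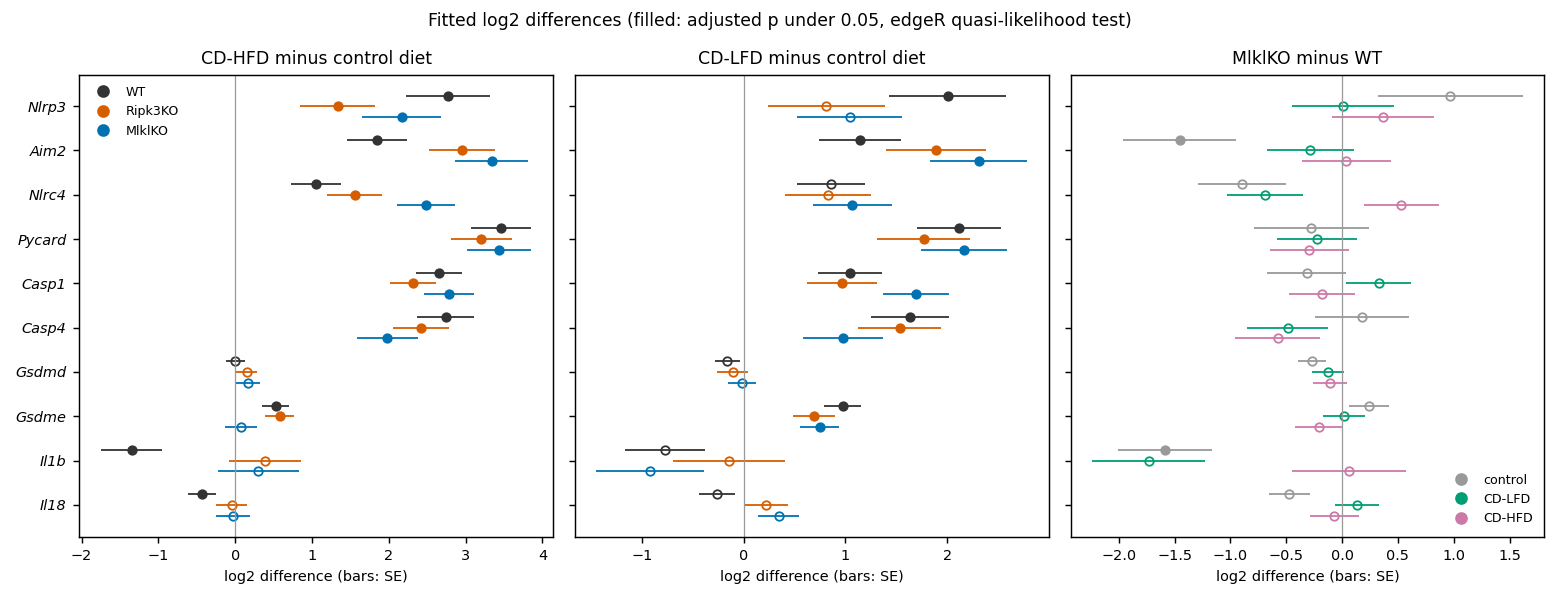
Fitted log2 differences (horizontal axes) with their SE for the 10 members, for CD-HFD minus control and CD-LFD minus control in each genotype and for MlklKO minus WT on each diet, with filled points for an edgeR adjusted p under 0.05. Pycard lies at 3.20 to 3.46 on CD-HFD and at 1.77 to 2.17 on CD-LFD, and in the knockout panel only Aim2 and Il1b on control are filled.

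Between the choline-deficient diets, CD-HFD was above CD-LFD for Pycard and Casp1 in all 3 genotypes. WT had 3 members higher and 1 lower (21.1% of all genes called, 13.7% higher and 7.4% lower). Ripk3KO had 2 higher (8.83% called, 5.75% higher and 3.08% lower), and MlklKO had 3 higher and 1 lower (23.7% called, 14.6% higher and 9.14% lower). Casp4 was the third in WT (1.10 ± 0.31, edgeR adjusted p = 0.00733) and Nlrc4 the third in MlklKO (1.41 ± 0.39, 0.00621). Casp1 differed by 1.60 ± 0.26 in WT, 1.35 ± 0.34 in Ripk3KO and 1.09 ± 0.33 in MlklKO (adjusted p = 9.72e-06, 0.00957 and 0.0132). Pycard differed by 1.34 ± 0.30, 1.44 ± 0.41 and 1.27 ± 0.40 (adjusted p = 0.000803, 0.0219 and 0.0166). The Ripk3KO count was 0 without Ripk3KO CD-LFD replicate 2 and 1 without CD-LFD replicate 1 or CD-HFD replicate 1. Fits that left out 1 library called 500 to 1321 of all genes in Ripk3KO, against 1312 with every library. The MlklKO count was 2 without MlklKO CD-LFD replicate 4 or CD-HFD replicate 2 or 4. It was 8 when libraries were divided by their size alone. That setting called 4770 genes of all higher and 388 lower in MlklKO, against 2164 and 1359. It moved the median log2 difference of all genes from 0.03 to 0.41.

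Loss of Ripk3 or Mlkl did not go with a called difference in any member on either choline-deficient diet. On CD-HFD 0 of 10 members passed the edgeR test in Ripk3KO against WT (0.377% of all genes) and 0 in MlklKO against WT (0% of all genes). DESeq2 also called 0. In either comparison 0 members had an unadjusted p under 0.05, against 1297 (Ripk3KO) and 1246 (MlklKO) of all genes. The log2 differences in MlklKO ranged from -0.58 for Casp4 (95% interval -1.32 to 0.16) to 0.53 for Nlrc4 (-0.13 to 1.19), and those in Ripk3KO from -0.27 for Nlrp3 (-1.10 to 0.57) to 0.37 for Gsdme (0.01 to 0.73). These intervals are slightly narrower than the test, by which Gsdme had an unadjusted p of 0.0526 (edgeR). For Casp1 they were -0.18 (-0.76 to 0.40) in MlklKO and 0.03 (-0.49 to 0.55) in Ripk3KO. For Pycard they were -0.30 (-0.99 to 0.40) and -0.25 (-0.87 to 0.37). The Il1b difference in MlklKO was 0.06, and -0.46 without the library labelled MlklKO CD-HFD replicate 1. The intervals leave room for differences of 1.5-fold and more for most members, so similar levels are not shown. On CD-LFD 0 of 10 members passed in Ripk3KO against WT (1.1% of all genes called, 0.794% higher and 0.31% lower), and 0 by DESeq2. There 0 members had an unadjusted p under 0.05, against 1692 of all genes. In MlklKO against WT 0 passed (2.56% of all genes), 1 had an unadjusted p under 0.05 (2320 of all genes) and DESeq2 called 1. That member was Il1b, at -1.73 ± 0.51 (edgeR adjusted p = 0.0528), with all 4 MlklKO libraries below all 6 WT libraries, and it passed without WT CD-LFD replicate 3 or 4. It was -0.93 (edgeR adjusted p = 0.843) with the clock-gene ratio as a covariate and -1.65 (0.0946) with a replicate block.

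On control diet Il1b was lower in both knockouts than in WT. It was the 1 member called in Ripk3KO (4.47% of all genes called, 2.23% lower), at -1.57 ± 0.42 (edgeR adjusted p = 0.0232), and 1 of 2 called in MlklKO (27.1% of all genes called, 14.1% lower), at -1.59 ± 0.42 (adjusted p = 0.00464). In the low range of the clock-gene ratio, where 2 WT control libraries remain, these differences were -0.19 (adjusted p = 0.931) and -0.19 (adjusted p = 0.885). The Ripk3KO call was also lost without WT control replicate 6 (adjusted p = 0.0901) or Ripk3KO control replicate 3. The other member called in MlklKO was Aim2, at -1.45 ± 0.51 (edgeR adjusted p = 0.0289). It fell to -0.62 (adjusted p = 0.399) without WT control replicate 6, and its call was also lost without MlklKO control replicate 1, 2 or 5. None of the 4 interactions of knockout and diet had a called member, against 0.478% and 4.11% of all genes for CD-HFD with Ripk3KO and MlklKO and 0.0269% and 8.45% for CD-LFD. DESeq2 called 0 in each. The members with an unadjusted p under 0.05 numbered 1, 3, 0 and 1 in that order, against 1624, 2782, 1230 and 3557 of all 14862 genes. Among these members Il1b had interactions with CD-HFD of 1.74 ± 0.61 in Ripk3KO and 1.65 ± 0.66 in MlklKO (edgeR adjusted p = 0.216 and 0.149), which were 0.28 and 0.16 in the low range of the clock-gene ratio.

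Marker sums of several cell types were higher on CD-HFD together with the members, macrophages among them. Those of hepatocytes were lower in every genotype and those of endothelial cells in WT. The 9 markers of monocyte-derived macrophages (Ccr2, Ly6c2, Itgam, Itgax, Cx3cr1, Trem2, Gpnmb, Cd9 and Spp1) summed to 50.5 to 74.9 scaled CPM in WT on control, 199 to 433 on CD-LFD and 1031 to 2008 on CD-HFD. In Ripk3KO the sums were 53.5 to 114, 117 to 658 and 1133 to 1658, and in MlklKO 91.9 to 148, 202 to 342 and 1461 to 1807. All 9 markers had counts, and Spp1 and Gpnmb made up most of the sum. Spp1 is also a cholangiocyte gene and stands in that list too. The Kupffer cell list of 8 genes overlapped between diets in WT (152 to 207, 85.7 to 165 and 130 to 224) and between control and CD-HFD in Ripk3KO (51.2 to 350.3 and 160 to 351) but not in MlklKO (77.9 to 224 and 233 to 385). In WT Timd4, a marker of resident Kupffer cells, went from a mean of 4.84 on control to 0.182 on CD-HFD and Clec4f from 79.3 to 24.8. The means of Marco (11.6 and 2.08), Vsig4 (10.6 and 7.54) and Folr2 (0.733 and 0.461) were also lower on CD-HFD, and those of Csf1r (30.5 and 88.9), Adgre1 (6.93 and 16.3) and Cd5l (41.1 and 46.0) were higher. Neutrophil markers summed to 0.921 to 12.1 in WT on control and 19 to 35.6 on CD-HFD. Ly6g, which defines neutrophils, was at 0 in both of these groups, with 6 counts over all libraries. In WT on control and CD-HFD, cholangiocyte markers summed to 44.7 to 82.9 and 676 to 1125, those of hepatic stellate cells to 72 to 164 and 348 to 725, and those of T and NK cells to 1.95 to 4.59 and 10.3 to 26.6, each with no overlap. Hepatocyte markers summed to 100885 to 164341 in WT on control and 58216 to 97630 on CD-HFD. In Ripk3KO these sums were 116719 to 161778 and 65454 to 92511, and in MlklKO 121259 to 130937 and 68600 to 92226. The 2 diets did not overlap in any genotype. Endothelial cell markers summed to 156 to 201 in WT on control and 71.8 to 120 on CD-HFD, with no overlap, and the ranges of these diets overlapped in Ripk3KO (110 to 164 and 72 to 119) and MlklKO (124 to 193 and 113 to 160). The sums of dendritic cell markers (7.98 to 28.8 and 23.3 to 30.5) and B cell markers (0.976 to 11.22 and 5.23 to 11.23) overlapped between control and CD-HFD in WT. Within WT on CD-HFD, Pycard was highest in replicate 5 (11.8), and the macrophage sum (2008) and Casp1 (15.9) were highest in replicate 3. In bulk liver, more cells of a type and more RNA per cell cannot be told apart, and the part of cell composition in the members' differences was not tested.

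**Figure D4:**
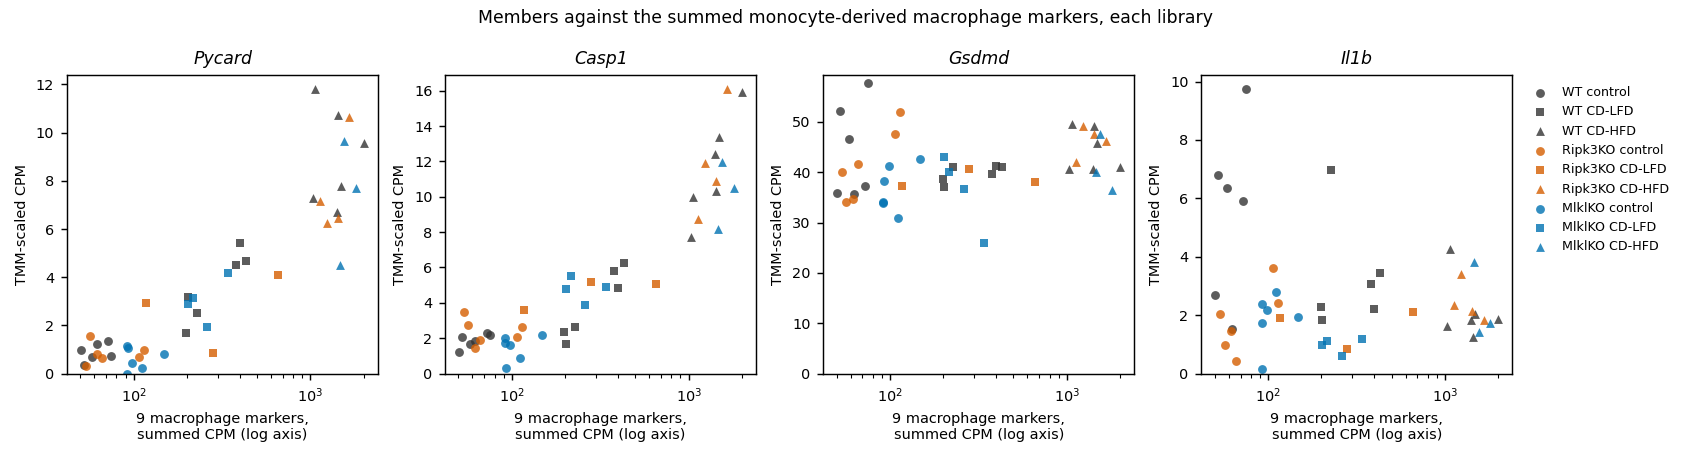
Scaled CPM of Pycard, Casp1, Gsdmd and Il1b (vertical axes) against the summed scaled CPM of 9 monocyte-derived macrophage markers (horizontal log axes) in each library, with color for genotype and shape for diet. Pycard and Casp1 are highest in the CD-HFD libraries, whose marker sums run from 1031 to 2008, while Gsdmd is spread over 25.9 to 57.8 across the whole axis.

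The genes whose levels over the 44 libraries were most like each member's differed between members. For Pycard they were Cd52, Tmsb4x and Aif1 (Pearson r of log2 CPM 0.941, 0.929 and 0.928), and for Aim2 they were Cd37, Pld4 and Hpgds (0.925, 0.923 and 0.919). For Casp1 they were Pirb, Csf2ra and Apbb1ip, each at 0.919, and for Nlrp3 Lilrb4a, Oas3 and C5ar1 (0.842, 0.841 and 0.84). Cd52 and Cd37 encode leukocyte surface proteins and Aif1 is a macrophage gene. Nlrc4 was nearest to Uba7, Nlrp1b and Tmem106a (0.876, 0.86 and 0.858). Casp4 was nearest to Bicc1, Anxa13 and Cd63 (0.919, 0.918 and 0.916), of which Bicc1 and Anxa13 are known from epithelial cells. Gsdme was nearest to Tmub2, Tceal8 and Omd (0.788, 0.762 and 0.739), Il18 to Rilp, Miga2 and Hebp1 (0.741, 0.719 and 0.707), Gsdmd to Gsap, Slc36a1 and Evi5l (0.652, 0.635 and 0.619), and Il1b to Plxna2, Pou2f1 and Zmym4 (0.613, 0.603 and 0.573). Among the members themselves the closest pairs were Aim2 with Pycard (0.855) and Casp1 with Casp4 (0.851), and the most opposed were Nlrp3 and Il18 (-0.33). These values describe libraries that share 9 groups, a scaling and the diet contrast, and genes of low counts are limited by counting noise.

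Other genes of the pathway were read from 5 lists of 63 genes, of which 60 were matched and 48 tested. On CD-HFD in WT 28 of the 48 were higher and 4 lower (edgeR adjusted p under 0.05), and the counts were 26 and 5 in Ripk3KO and 24 and 8 in MlklKO, where 47.7%, 46.3% and 45.2% of all genes were called. Their median log2 differences were 0.83, 1.07 and 0.72. The list of genes for priming and activation had 14 of 16 higher and 0 lower in WT, with a median of 1.92. It was led by Cd14, the lipopolysaccharide co-receptor (1.53 ± 0.71 to 25.0 ± 5.6 scaled CPM, SD, n = 6 each, log2 difference 3.88 ± 0.38), Tlr2, a receptor of bacterial lipoproteins (1.5 ± 0.48 to 14.1 ± 4.8, 3.17 ± 0.56), and Tnfaip3, an NF-kappaB target that restrains the same signal (2.33 ± 0.91 to 17 ± 5.4, 2.81 ± 0.44). In this list 12 members were higher in Ripk3KO and 11 in MlklKO, 0 lower in both.

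Of the 12 tested genes for other sensors and their partners, 6 were higher and 2 lower on CD-HFD in WT. Zbp1, a nucleic acid sensor that can also engage RIPK3, went from 4.44 ± 1.90 to 35.9 ± 9.6 scaled CPM (log2 difference 2.95 ± 0.30), Naip6 from 1.33 ± 0.71 to 6.02 ± 1.22 (2.17 ± 0.34) and Nlrp1b from 1.11 ± 1.14 to 4.62 ± 1.65 (2.06 ± 0.39). Naip1 went from 1.40 ± 0.75 to 0.156 ± 0.094 (-2.96 ± 0.61) and Nlrp6, a sensor of epithelia, from 445 ± 302 to 200 ± 60 (-1.15 ± 0.30). The Naip genes and the Nlrp1 genes have near-identical copies, so the division of reads among them is uncertain. Of 9 tested caspases and regulators 3 were higher and 1 lower, a share near the 47.7% of all genes called. Casp12, of the same gene cluster as Casp1 and Casp4, went from 1.30 ± 1.10 to 25.0 ± 7.3 (4.14 ± 0.41), Card9, an adaptor of myeloid cells, rose by 2.29 ± 0.41 and Casp8 by 0.34 ± 0.14, while Casp9 was at -0.57 ± 0.24. Of the 12 other gasdermins and membrane genes 2 were tested. Chmp4b, of the membrane repair machinery, was higher (0.48 ± 0.14) and Ninj1, which ruptures the membrane of dying cells, did not pass the test (-0.08 ± 0.12). In MlklKO both Casp8 (-0.54) and Chmp4b (-0.52) were lower instead.

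In the list of the interleukin-1 family, 4 of 9 tested genes were higher and 1 lower on CD-HFD in WT, near the 47.7% of all genes called. Il1rn, the secreted antagonist of the interleukin-1 receptor, went from 1.09 ± 0.66 to 21.1 ± 2.2 scaled CPM (log2 difference 4.25 ± 0.48, edgeR adjusted p = 1.36e-09). Il18rap, a subunit of the interleukin-18 receptor, had 0.173 ± 0.213 and 1.14 ± 0.54 (fitted 2.56 ± 0.67), Il33, an alarmin, rose by 1.26 ± 0.42, and Il1rap, the accessory chain of the interleukin-1 receptor, went from 142 ± 30 to 66.5 ± 9.3 (-1.10 ± 0.15). Il1rn was also higher in Ripk3KO (1.93) and MlklKO (2.18). Knockout against WT on CD-HFD gave 0 called genes of 48 in both knockouts by edgeR and by DESeq2. At an unadjusted p under 0.05 there were 5 (Ripk3KO) and 3 (MlklKO) genes, against 1297 and 1246 of all genes tested. On control diet Ripk3KO had 6 genes above and 2 below WT at the threshold, and MlklKO 13 and 4, where 4.47% and 27.1% of all genes were called. In the low range of the clock-gene ratio the counts called were 2 in Ripk3KO and 11 in MlklKO, all higher, where 67 genes of all were called higher and 72 lower in Ripk3KO and 1024 and 882 in MlklKO. The 2 genes with a called interaction of Ripk3KO and CD-HFD, named here after their values were seen, were Il1r1, the signalling receptor of interleukin-1 (-2.41), and Tlr2 (-3.12), with edgeR adjusted p of 0.0031 and 0.0414. In the low range of the clock-gene ratio 1 gene was called there, as without the library labelled Ripk3KO control replicate 5, and DESeq2 called 5 over all libraries. The interaction of MlklKO had 0 genes higher and 9 lower with CD-HFD (4.11% of all genes called), 5 called in the low range and 6 without the library labelled MlklKO CD-HFD replicate 1, and 1 higher and 9 lower with CD-LFD (8.45%). Il1r1 (-3.32 and -2.51), Tlr2 (-2.77 and -3.32), Cd14 (-2.55 and -2.99) and Tnfaip3 (-2.35 and -3.49) were lower in both. Il1r1 had means of 40.5 ± 9.7 in WT, 246 ± 117 in Ripk3KO and 448 ± 204 in MlklKO on control (SD, n = 6 each), and of 62.5 ± 14.5, 70.9 ± 6.9 and 68.8 ± 23.1 on CD-HFD (n = 6, 4 and 3).

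**Figure D5:**
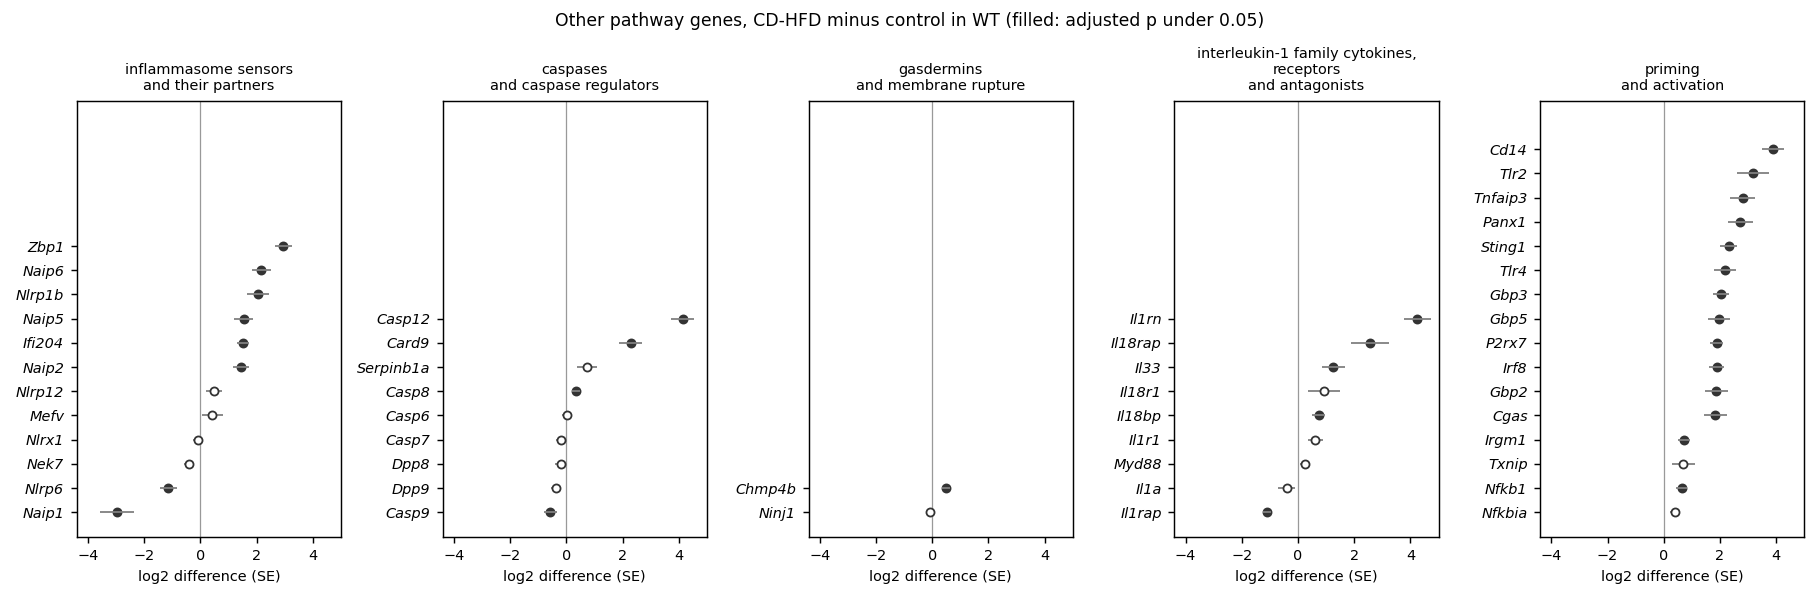
Fitted log2 differences of CD-HFD minus control in WT (horizontal axes, bars are SE) for the 48 tested genes of 5 pathway lists, 1 panel per list, with filled points for an edgeR adjusted p under 0.05. In the list for priming and activation 14 of 16 points are filled and to the right of 0, whereas in the caspase list 3 of 9 are.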

How the data were processed

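The data were 44 RNA sequencing libraries of mouse liver, for which the authors deposited raw counts of reads per gene. Per the submitters' processing notes, the tools named were FastQC, STAR, HTSeq, edgeR and limma, with the build GRCm39 (mm39). Versions, and whether counting used the strand, are not given in the sources used here.

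Columns were matched to libraries by title. Of 35249 genes, 34373 had a symbol in the annotation and 14862 passed edgeR's filterByExpr (minimum count 10), holding 99.8% of all counts. Total counts were 2476268 to 88204703 per library and TMM factors 0.800 to 1.34. A model with 1 mean per group over all 44 libraries was fitted with edgeR 4.0.16 in R 4.3.3 (glmQLFit and glmQLFTest, whose p is never below that of a Poisson test). The 19 comparisons were each adjusted by Benjamini-Hochberg over all tested genes at 0.05. The SE was the log2 difference divided by the square root of F, and 95% intervals were 1.96 SE either side, slightly narrower than the F test implies. The interval of the Nlrp3 count ratio covers counting error only. Scaled CPM used library totals times TMM factors. Likeness between genes was Pearson's r of log2 CPM with a prior count of 2. The test was run first on simulated data with known changes.

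Alternatives were DESeq2 1.42.0, RLE size factors, no low-count filter, division by library size only, the compared groups alone, a replicate block, leaving out each library, leaving out WT control replicates 5 and 6, and the clock-gene ratio as a covariate. Restriction to 1 range of that ratio was chosen after seeing the data. Members, gene lists and tests were chosen with earlier results of these data known. Named genes were the 10 members, the called genes of each pathway list with the 3 largest rises and 2 largest falls on CD-HFD in WT, and the 3 genes most like each member. A further gene, left out of the pathway lists, is not reported here. No 2 libraries of a group agreed within sampling noise (lowest chi-square per degree of freedom 6.95).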

Additional observations from a re-analysis of the deposited data

Results flagged for a closer look

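In 5 of 70 combinations of a member and a group of 4 to 6 libraries, 1 library stood far from the others by Dixon's ratio of gap to range, which chance gives in about 1 of 20. Aim2 was at 5.12 scaled CPM in WT control replicate 6, with the next library at 1.53. Il1b was at 6.96 in WT CD-LFD replicate 1 (next 3.46) and at 4.26 in WT CD-HFD replicate 5 (next 2.05). Casp4 was at 20.9 in Ripk3KO CD-HFD replicate 1 (next 10.9). Il18 was lowest at 4.09 in MlklKO control replicate 1 (next 7.72).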

How the results depend on the processing

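Counts of called members on CD-HFD against control held within 1.5 times of 9, 7 and 6 in every setting run. MlklKO against WT on CD-LFD gave 1 instead of 0 with RLE size factors, library size only, DESeq2, the compared groups alone or without WT control replicates 5 and 6. MlklKO against WT on control gave 1 instead of 2 with no low-count filter, the clock covariate, the compared groups alone or without WT control replicates 5 and 6, and 0 in 1 clock-gene range. Ripk3KO against WT on control gave 0 instead of 1 with the last 3 of these and the clock covariate. CD-HFD minus CD-LFD in MlklKO gave 8 instead of 4 with library size only, where 4770 genes of all were higher and 388 lower against 2164 and 1359. Leaving out each library gave 0 to 1 (Ripk3KO) and 1 to 3 (MlklKO) against WT on control, 0 to 1 for MlklKO against WT on CD-LFD, 0 to 6 for CD-LFD minus control in Ripk3KO, and 0 to 2 (Ripk3KO) and 2 to 5 (MlklKO) for CD-HFD minus CD-LFD. In the same order these fits called 394 to 1025, 3125 to 4417, 178 to 439, 1360 to 4108, 500 to 1321 and 1926 to 3146 of all genes. Signs turned for Il18 on CD-HFD in WT (0.0483) and Il1b on CD-LFD in Ripk3KO (0.17) with library size only. With the clock covariate they turned for Il1b in CD-HFD minus CD-LFD in WT (0.0627) and the interaction of MlklKO with CD-LFD (0.0526). In 1 clock-gene range they turned for Il1b on CD-HFD in WT (0.11) and MlklKO against WT on CD-HFD (-0.0349). Uncalled Il1b differences also turned on leaving out 1 library: -0.40 to 0.21 (MlklKO with CD-LFD), -0.46 to 0.41 (MlklKO against WT on CD-HFD), -0.45 to 0.20 (CD-LFD in Ripk3KO), -0.0356 to 0.50 (Ripk3KO against WT on CD-HFD) and -0.22 to 0.56 (CD-HFD in MlklKO). The cause was not tested. Library size only called 6799 genes higher and 1021 lower on CD-HFD in WT against 3496 and 3586, 6855 and 741 against 3657 and 3226 in Ripk3KO, and 6351 and 728 against 3700 and 3019 in MlklKO. In no comparison did all same-numbered libraries correlate above 0.1, which cannot settle whether the numbers pair them. In WT 4 of 6 pairs did so for CD-LFD against control (up to 0.545) and for CD-HFD against control (up to 0.441). The main fit treats libraries as unpaired. With a replicate block the members called were 8, 7 and 6 on CD-HFD and 7, 5 and 6 on CD-LFD in WT, Ripk3KO and MlklKO. Comparisons with WT on CD-LFD have no value in the low clock-gene range, the one fitted. Few counts limit Nlrp3 most.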
